A study of Mus musculus with 20 samples.

Results

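The testis of mice killed on day 35 after birth was compared with that of mice killed on day 30, the last 2 ages of a developmental series of whole mouse testis. The comparison rests on 4 of the 20 arrays, chosen by their titles, 2 for each age, and day entered the model as a factor fitted to all 20 arrays and 10 ages. The animals carried no stated treatment or genotype, and the sources used here do not give strain, number of animals or pooling. Whether the 2 arrays of a day hold different animals is not stated either, and the p-values then reflect only the spread between these arrays, which may be technical.

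Spermatogenesis starts soon after birth and its first wave moves through mitotic spermatogonia, meiotic spermatocytes and round and elongating spermatids in near synchrony. At the end of the wave, spermatids replace their histones with transition proteins and then protamines, assemble the sperm tail, shed most of their cytoplasm and are released into the tubule lumen. Over the same weeks the adult population of Leydig cells, the testosterone-producing cells between the tubules, matures. In RNA of a whole organ, fewer cells of a type and less RNA per cell cannot be told apart.

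At this last step 10 of 5280 genes with a day mean of at least 200 changed by 2-fold or more and passed the test, and 426 (8.07%) passed it whatever the size. Of 194 tested genes on 7 lists of spermatid construction and condensation, Prkar2a was the 1 that passed with 2-fold, against 1.95% of all tested genes. That share comes mostly from dim genes, so it does not show the spermatid genes to be unusually stable. Fcgr3, an Fc receptor of macrophages and other myeloid cells, and Ptgds, a prostaglandin D synthase that also marks adult Leydig cells, rose 2.51-fold and 2.35-fold on the scale of the test. Mtm1, an X-linked phosphoinositide phosphatase, was 2.60-fold lower. Of 32 extracellular matrix genes 8 were lower at an adjusted p under 0.05 and none higher, against 4.18% lower and 2.65% higher over all genes. Of the 321 genes that passed with 2-fold, 175 had both day means below the 60th percentile of intensity.

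The promoter regions of these genes are shown because these are the genes with a day mean of at least 200 whose call held without each array in turn and for which the RefSeq table lists a start site (assembly GRCm38.p6, 250 bases before to 50 after the start, gene strand, 5′ to 3′). Fcgr3 is at chr1:171059354-171059653 on the minus strand, Ptgds at chr2:25469700-25469999 on the minus strand, and Mtm1 at chrX:71210517-71210816 on the plus strand. Where several starts were listed, the first is printed. Capitals mark a match to 1 of 4 motifs searched on both strands, chosen after the sequences had been read.
Fcgr3: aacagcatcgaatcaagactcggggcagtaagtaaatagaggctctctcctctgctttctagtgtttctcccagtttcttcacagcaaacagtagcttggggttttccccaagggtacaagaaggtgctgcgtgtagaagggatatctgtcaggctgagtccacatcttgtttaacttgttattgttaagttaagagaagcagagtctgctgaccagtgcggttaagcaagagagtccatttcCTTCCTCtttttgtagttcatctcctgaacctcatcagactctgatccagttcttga
Ptgds: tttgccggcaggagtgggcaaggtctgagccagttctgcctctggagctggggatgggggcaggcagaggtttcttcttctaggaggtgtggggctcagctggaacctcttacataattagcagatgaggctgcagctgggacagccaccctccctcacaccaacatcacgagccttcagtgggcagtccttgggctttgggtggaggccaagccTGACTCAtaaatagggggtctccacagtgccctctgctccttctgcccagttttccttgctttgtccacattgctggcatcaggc
Mtm1: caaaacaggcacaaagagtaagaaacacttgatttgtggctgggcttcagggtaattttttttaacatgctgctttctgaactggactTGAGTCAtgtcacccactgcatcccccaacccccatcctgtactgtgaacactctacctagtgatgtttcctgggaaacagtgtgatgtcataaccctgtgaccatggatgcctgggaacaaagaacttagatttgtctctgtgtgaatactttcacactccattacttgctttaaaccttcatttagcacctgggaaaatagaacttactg
The capitals in Fcgr3 are the reverse complement of the PU.1 box GAGGAAG, beginning at position -7 from the start site. Those in Ptgds are the AP-1 site TGACTCA at -35, and those in Mtm1 its reverse complement at -162. GAGGAAG occurred in 13.6% and TGACTCA in 5.2% of 32851 RefSeq windows of the same length. The TATA box TATAAA, in 13.6% of windows, and the CCAAT box CCAAT, in 37.4%, had no match in these 3 windows. A match is a description of letters and was not tested for factor binding.

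The values are intensities on the authors' linear scale, and a difference is log2 of day 35 over day 30 after adding 7.83 to each intensity, so it understates the change of dim genes. A gene was called at a Benjamini-Hochberg adjusted p under 0.05 (limma) and a difference of at least 1, which is 2-fold. Of 16429 genes tested, 102 were called higher (0.621%) and 219 lower (1.33%), and the 2 arrays of each day did not overlap for any of these 321. At an adjusted p under 0.05 whatever the size, 436 genes were higher (2.65%) and 687 lower (4.18%). The step before it, day 30 against day 20, called 1616 genes higher (9.84%) and 1106 lower (6.73%), and day 20 against day 18 called 441 (2.68%) and 135 (0.822%). These steps differ in length and share arrays with their neighbours. The second array titled day 18 carries day 0 in another label and was kept under its title; without it, day 35 against day 30 gave 101 higher and 212 lower genes.

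Most calls were of dim genes. The median of the higher day mean was 53.1 for the rises and 53.6 for the falls, against 99.6 over all tested genes. For 175 of the 321 it lay below 56.2, the 60th percentile of all intensities. Of 27 bacterial control probe sets, whose targets are not mouse RNA, the median was 9.19, 1 exceeded 50 and the highest read 109.5. Among the 5280 genes whose higher day mean was at least 200, 5 were called higher (0.0947%) and 5 lower (0.0947%), and 95.2% differed by less than 0.5. At an adjusted p under 0.05 whatever the size, 239 of these were higher (4.53%) and 187 lower (3.54%). At or above 500, 160 of 2534 genes were higher (6.31%) and 54 lower (2.13%), so the balance of the smaller differences was opposite to that over all genes. Among 1296 genes at or above 1000, the call was made once, for Lcn2, and 97.8% differed by less than 0.5.

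**Figure D1:**
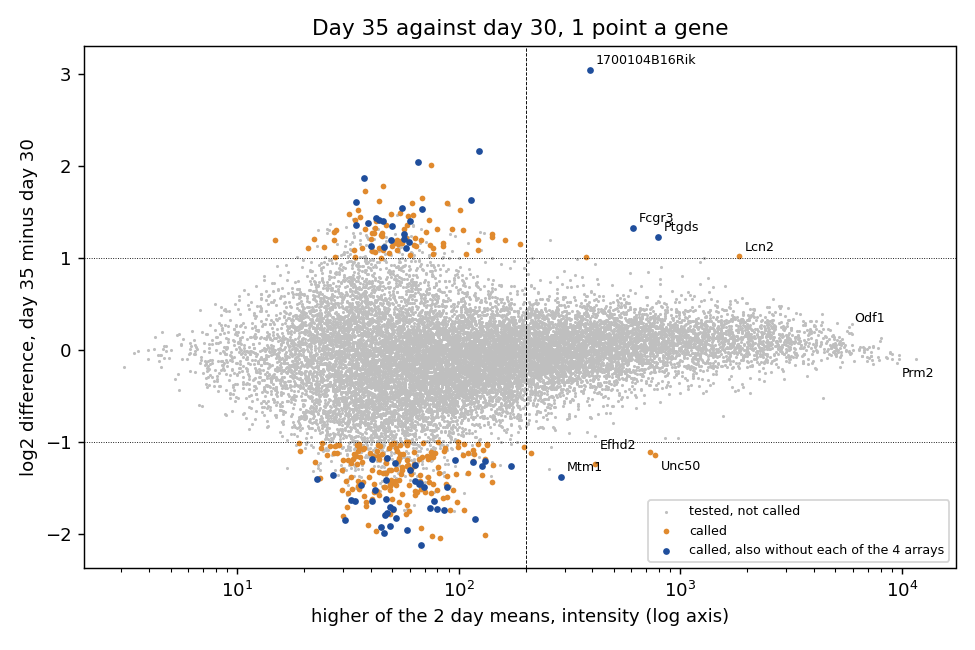
Each point is 1 of 16429 tested genes, with the higher of its 2 day means on a log axis and its log2 difference, day 35 minus day 30. Called genes (orange; blue where the call also held without each of the 4 arrays) crowd at low intensity, and 10 lie to the right of the dashed line at 200.

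The replicates limit how many calls hold. Duplicates differed most on these days, with a median SD of 0.182 on day 30 and 0.163 on day 35 on the log2 scale, against 0.0988 on day 6. The fit pools the spread over all 10 days, including days on which a gene was dim. With days 30 and 35 fitted alone, 5 genes were higher and 4 lower; with days 18 to 35 alone, 6 and 8; with weights for the arrays, 20 and 26. The call also held in each of the 4 fits without 1 array for 24 higher genes (0.146%) and 41 lower genes (0.25%). Without day 30 replicate 1 there were 224 higher and 296 lower genes, and without day 30 replicate 2 there were 179 and 189. Without day 35 replicate 1 the counts were 98 and 261, and without day 35 replicate 2 they were 108 and 356.

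**Figure D2:**
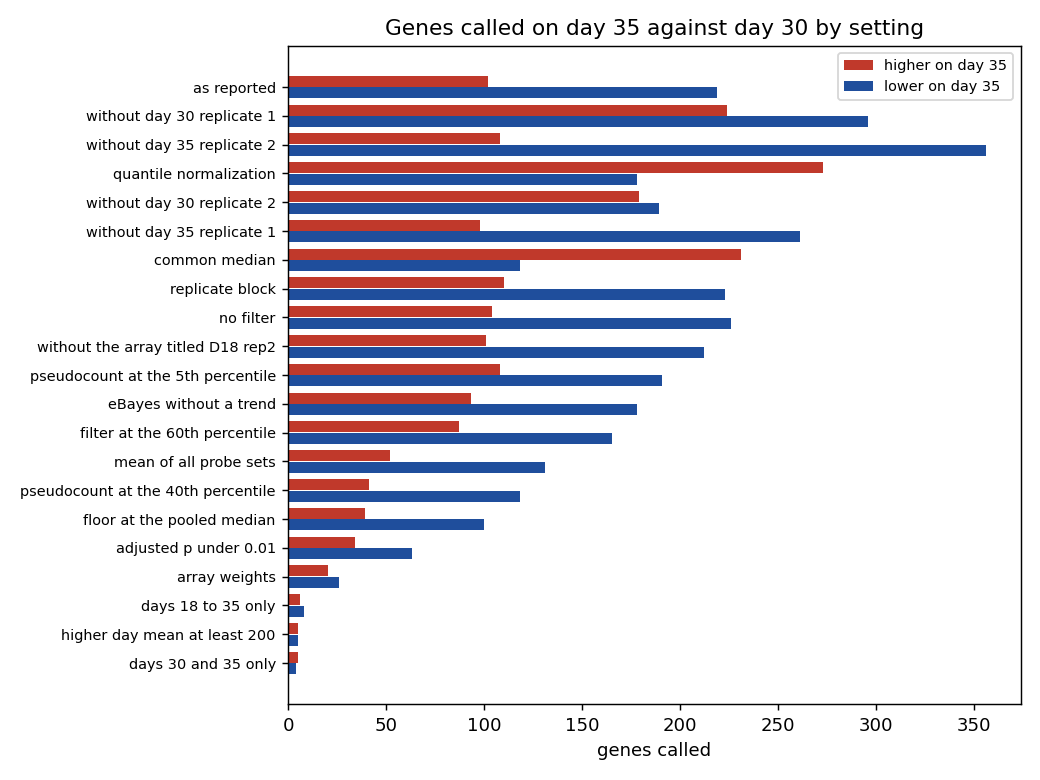
Bars give the number of genes called higher (red) and lower (blue) on day 35 under each setting, from 102 and 219 as reported to 5 and 4 with days 30 and 35 fitted alone. Settings that estimate the spread from late days only, or weight arrays by their noise, give the short bars near the bottom, together with the restriction to genes at 200 or above.

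The balance of rises and falls depended on the scale. As deposited, 31.8% of called genes were higher on day 35, with a median of all genes of -0.05. Quantile normalization gave 273 higher and 178 lower genes, 60.5% higher. Setting all arrays to a common median moved the median of all genes to 0.14 and gave 231 and 118, 66.2% higher. The array medians were 41.0 and 43.4 on day 30 and 35.0 and 36.9 on day 35. Of 18 hybridization and spike-in control probe sets, 17 were lower on day 35, with a median difference of -0.15. The ratio of 3′ to 5′ control probe sets of Actb, a sign of RNA length, was 2.10 and 2.27 on day 30 and 1.84 and 1.94 on day 35, and its part in the falls was not tested.

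The genes called at a higher day mean of at least 200 were singled out after their values were seen. Fcgr3, the low-affinity IgG receptor, read 242 and 235 on day 30 and 576 and 646 on day 35. Both later arrays were above both earlier ones by far more than the duplicates differed, and the difference was 1.33 ± 0.15 (SE, n = 2 and 2; adjusted p = 0.000147). Leaving out 1 array gave 1.25 to 1.41. Its mean had been 374 on day 20, so the course dipped on day 30. Of 24 tested macrophage and leukocyte genes, a list that does not hold Fcgr3, none was called. Among them 17 were lower and 7 higher, with a median of -0.12. The summed intensity of the list was 4944 and 4904 on day 30 and 5105 and 4721 on day 35. Aif1 weighed heavily in that sum, with means of 58.4 on day 20, 1576 on day 30 and 1945 on day 35. Csf1r, the receptor that macrophages need for survival, read 455 and 478 and then 321 and 290, a fall of less than 2-fold (-0.60 ± 0.11, adjusted p = 0.0034). Fcer1g, the signalling chain that Fc receptors pair with, read 36.8 and 10.3 and then 22.2 and 67.4, with overlapping arrays.

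Ptgds read 325 and 338 on day 30 and 869 and 716 on day 35. The groups did not overlap, and the difference was 1.23 ± 0.18 (adjusted p = 0.000649), 1.09 to 1.37 without 1 array. A second Ptgds probe set moved the same way by 1.79 (adjusted p = 0.000244). Over the series Ptgds fell from 2911 on day 0 to 58.8 on day 14, so the last 2 days are a second rise.

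Lcn2, a siderophore-binding lipocalin of the acute phase response, read 860 and 907 and then 2266 and 1421. Its later arrays were far apart, and the difference of 1.02 ± 0.28 (adjusted p = 0.0344) was called in 1 of the 4 fits without 1 array; it was 0.68 without day 35 replicate 1. Lcn2 had a mean of 101 on day 20. Agt, the angiotensin precursor, read 219 and 144 and then 468 and 283, a difference of 1.01 ± 0.24 (adjusted p = 0.0181). The Agt call ended without day 35 replicate 1 (0.65) and without day 30 replicate 2 (0.72).

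1700104B16Rik, a cDNA clone of unstated function and unmatched in the annotation, had the largest difference of all tested genes. It read 25.6 and 60.6 on day 30 and 438 and 342 on day 35 (3.04 ± 0.45, adjusted p = 0.000669), and the call held without each array. Its course was irregular: the mean was 6.29 on day 0 and 6.23 on day 10, 617 on day 20 and 43.1 on day 30.

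**Figure D3:**
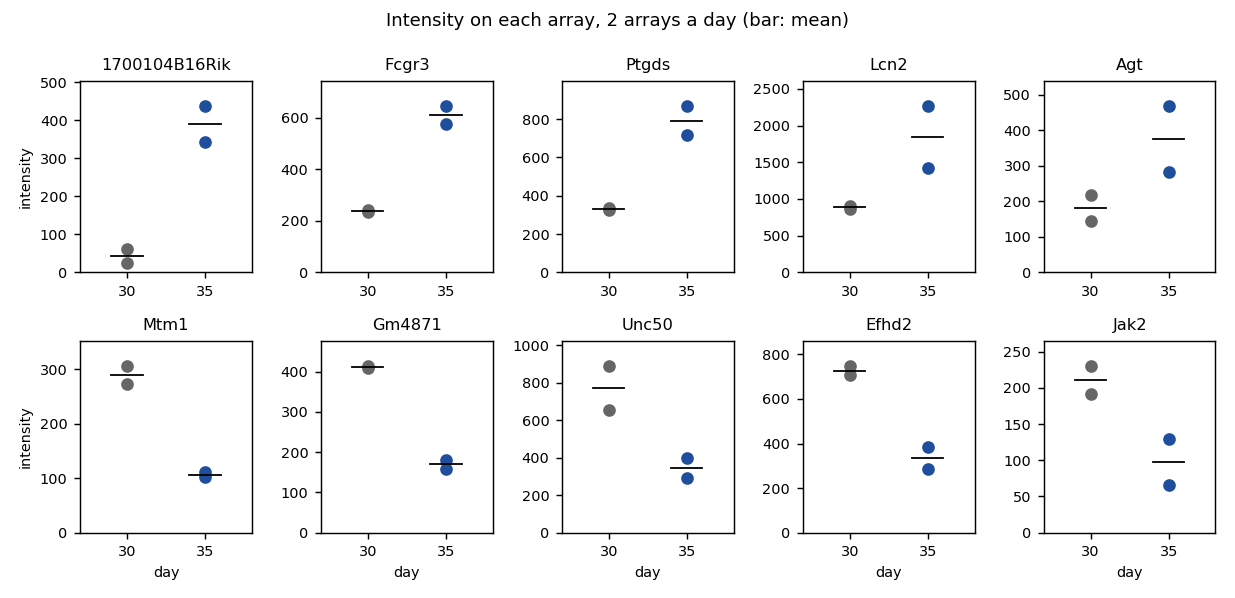
Each panel plots 1 gene's intensity on the 2 day 30 arrays (grey) and 2 day 35 arrays (blue), with a bar at the mean and the axis from 0. In the upper row, genes called higher, Lcn2 and Agt have widely spaced day 35 arrays (2266 and 1421 for Lcn2); in the lower row, genes called lower, Mtm1 and Gm4871 have close pairs.

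Mtm1, the phosphatase lost in X-linked myotubular myopathy, read 273 and 305 on day 30 and 101 and 111 on day 35. Its pairs were tight, and the difference was -1.38 ± 0.19 (adjusted p = 0.000424), from -1.46 to -1.30 without 1 array. Mtm1 had other probe sets, which moved by -0.28 and -0.88 and were not called, and the mean over its probe sets, -0.85, fell short of the 2-fold minimum.

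Efhd2, a calcium-binding adaptor, read 708 and 747 and then 286 and 384 (-1.12 ± 0.17, adjusted p = 0.000707). Its call ended without day 35 replicate 1 (-0.91), and its other probe set moved by -0.07. Unc50, a Golgi membrane protein, read 887 and 653 and then 397 and 291 (-1.15 ± 0.19, adjusted p = 0.0021). Both of its other probe sets moved the opposite way, by 0.14 and 0.50, without being called, and the call ended without day 30 replicate 1 (-0.93) and without day 35 replicate 2 (-0.93). Gm4871, a predicted gene, read 413 and 408 and then 159 and 180 (-1.24 ± 0.31, adjusted p = 0.0228), and was called in 1 of the 4 fits without 1 array. Jak2, the kinase of cytokine and growth hormone receptors, read 192 and 230 and then 129 and 65.5 (-1.12 ± 0.22, adjusted p = 0.0051). Jak2 was called in 2 of those fits, and dropped to -0.67 without day 35 replicate 2.

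Array weights ended the calls of Lcn2, Agt, Efhd2, Unc50, Gm4871 and Jak2. The mean over all probe sets ended those of Mtm1, Efhd2 (-0.59), Unc50 (-0.17) and Jak2 (-0.63). A common median ended those of Efhd2 (-0.92), Unc50 (-0.95) and Jak2 (-0.93), and quantile normalization those of Lcn2 (0.87) and Agt (0.91). Probe sets for 1 gene often disagreed. For 138 called genes with 237 further probe sets, 136 of these had the sign of the called one and 6 were called the same way. Of the 10 genes above, the fit of days 30 and 35 alone called 8, all but Agt and Jak2. It also called 1700001K19Rik, a cDNA clone at 642 and 626 and then 1305 and 1246, whose difference had an adjusted p of 0.148 in the fit of all days.

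Below 2-fold, further genes at 200 or above passed the p threshold with tight duplicates; they too were picked after their values were seen. Mrpl22, a mitochondrial ribosomal protein, read 723 and 759 and then 1279 and 1164 (0.71 ± 0.08, adjusted p = 0.000134). Saraf, which restrains store-operated calcium entry, read 425 and 385 and then 701 and 624 (0.70 ± 0.09, adjusted p = 0.000394). Bhmt, which remethylates homocysteine with betaine, read 372 and 403 and then 830 and 596 (0.85 ± 0.20, adjusted p = 0.0181). Tpi1, the glycolytic triose phosphate isomerase, read 1410 and 1366 and then 1998 and 1969 (0.51 ± 0.07, adjusted p = 0.000627), and its other probe sets gave 0.59 and 0.52. Among the falls, Col4a4, a chain of basement membrane collagen, read 415 and 408 and then 212 and 211 (-0.93 ± 0.07, adjusted p = 1.2e-06). Other Col4a4 probe sets moved by -0.19 and -0.69, and neither passed the p threshold. Nbn, a DNA double-strand break protein, read 305 and 232 and then 173 and 121 (-0.85 ± 0.16, adjusted p = 0.00404). Polr2a, the large subunit of RNA polymerase II, read 443 and 450 and then 296 and 283 (-0.61 ± 0.14, adjusted p = 0.0129), while its other probe set moved by 0.41.

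By the rule for named genes, the largest rises at or above the 60th percentile were Gkn3, Krt72, Tnfsf13os, Tmem121b, Adam33, Pms2, Nat8f1, Lgals2, Phf12, Notch1, Pdlim7 and Fcgr3, from 2.16 down to 1.33. Apart from Fcgr3 their day 35 means lay between 58.5 and 123. Gkn3, a gastrokine, read 15.9 and 28.4 and then 122 and 124 (2.16 ± 0.47, adjusted p = 0.011), but its other probe set moved by -0.20. Notch1, the receptor of Notch signalling, read 21.4 and 14.1 and then 71.6 and 48.5 (1.40 ± 0.22, adjusted p = 0.00114). Pms2, a mismatch repair protein used in meiosis, read 14.7 and 21.8 and then 53.5 and 82.4 (1.53 ± 0.20, adjusted p = 0.000357), with other probe sets at -0.91 and -0.25. Gkn3, Krt72, Pms2, Notch1 and Fcgr3 were called without each array in turn; Nat8f1 in none of these fits.

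The largest falls by the same rule were Zfp365, Rimbp2, Kcna2, Aknaos, Dock4, Fosl1, Rassf8, Chat, Myh7b, Shisal1, Extl3 and Chst11, from -2.12 to -1.72. Zfp365, a zinc finger protein, read 56.9 and 78.6 and then 8.90 and 9.96 (-2.12 ± 0.41, adjusted p = 0.00551). Chst11, which sulfates chondroitin, read 78.7 and 69.8 and then 20.8 and 13.9 (-1.72 ± 0.26, adjusted p = 0.00078), and its other probe set moved by -1.16. Kcna2, a voltage-gated potassium channel, was called in 1 of the 4 fits without 1 array, and its other probe set moved by 0.87. Zfp365, Dock4, Rassf8, Shisal1, Extl3 and Chst11 were called without each array.

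Of 18 tested genes of chromatin condensation none was called; their median was 0.14, and 0.13 and 0.33 under quantile and common-median scaling. Tnp1 and Tnp2, the transition proteins, differed by -0.05 (95% interval -0.63 to 0.53) and -0.08 (-0.69 to 0.52). Prm1 and Prm2, the protamines, differed by -0.15 (-1.03 to 0.73) and -0.10 (-0.77 to 0.57). Prm1 read 9499 and 9489 and then 9246 and 7946, after 25.9 on day 20. These intervals are wide and do not show equal levels. Here and for the spermatid genes below, intervals and p-values use a spread pooled over all 10 days. Prm1 had means of 6.45 to 25.9 from day 0 to day 20, so that spread includes dim readings. It does not measure the day 30 and day 35 duplicates alone. Camk4, the kinase that phosphorylates protamine 2, read 92.8 and 114 and then 191 and 203 (0.89 ± 0.29, adjusted p = 0.071). Tssk6, a spermatid kinase, read 1826 and 1763 and then 2675 and 2580 (0.55 ± 0.39, adjusted p = 0.434).

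In the list of mitochondrial sheath and cytoplasm removal genes, none of 23 was called, but 22 differences were positive and the median, 0.25, was 0.17 and 0.44 under the other scalings. Over all genes with a day mean of at least 500 the median was 0.09, against -0.05 for all tested genes. The summed intensity of the list was 51977 and 50768 on day 30 and 58418 and 55598 on day 35, so the arrays did not overlap. Spem1, needed for cytoplasm removal, read 1148 and 1234 and then 1624 and 1675 (0.47 ± 0.38, adjusted p = 0.513). Tssk1, a kinase of the chromatoid body ring, read 1563 and 1638 and then 2106 and 2054 (0.38 ± 0.21, adjusted p = 0.31). Prdx4, a peroxiredoxin of the endoplasmic reticulum, read 1694 and 1695 and then 2005 and 1969 (0.23 ± 0.08, adjusted p = 0.1). Smcp, a cysteine-rich protein of sperm mitochondria, read 7233 and 7187 and then 7573 and 7152. Gpx4, the peroxidase that becomes a structural protein of the mitochondrial capsule, read 6723 and 6534 and then 7060 and 6436.

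Of 20 fibrous sheath and outer dense fibre genes none was called, with a median of 0.16. Odf1, a main outer dense fibre protein, read 4892 and 4830 and then 6087 and 5453 (0.24, interval -0.46 to 0.95), and Akap4, the main fibrous sheath protein, differed by 0.13 (-0.65 to 0.92). None of 36 axonemal and tail assembly genes was called (median 0.06), nor any of 41 acrosome genes (0.10), 34 round spermatid genes (0.13) or 29 germ cell energy genes (0.04). The axonemal and energy medians were below 0 under quantile normalization. Of 26 sperm channel and signalling genes, Prkar2a, a regulatory subunit of protein kinase A, was called lower. It read 120 and 147 and then 57.5 and 63.8 (-1.04 ± 0.15, adjusted p = 0.000547), was called in 2 of the 4 fits without 1 array, and its other probe sets gave 0.05, -0.62 and -0.34.

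**Figure D4:**
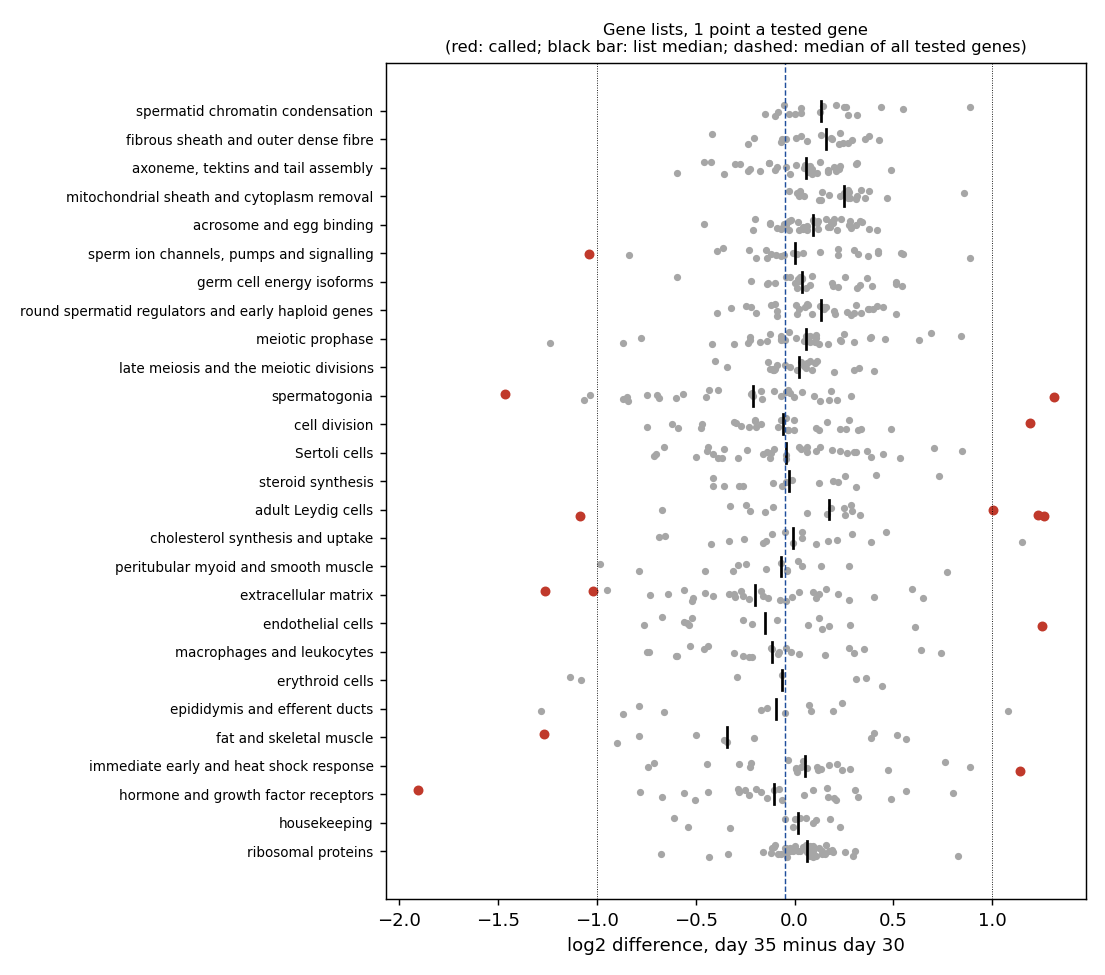
Each point is 1 tested member of a gene list at its log2 difference, day 35 minus day 30; red points were called, black bars are list medians, the dashed line is the median of all tested genes and dotted lines mark 2-fold. The medians of the germ cell structure lists lie at or above 0 (0.25 for mitochondrial sheath and cytoplasm removal), and those of extracellular matrix and spermatogonia near -0.20.

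None of 37 meiotic prophase genes was called (median 0.06), nor any of 24 genes of late meiosis (0.02, and -0.04 under quantile normalization). Below 2-fold, Tex11 was higher (0.69 ± 0.18, adjusted p = 0.0315) and Tex15 lower (-0.31 ± 0.08, adjusted p = 0.0247). Prdm9 had the largest difference of the prophase list, at 41.3 and 24.2 and then 9.09 and 8.89 (-1.24 ± 0.38, adjusted p = 0.0545). Sycp3, a synaptonemal complex protein, read 1948 and 1547 and then 1800 and 1813 (0.06, interval -0.14 to 0.26). Spo11, which makes the meiotic breaks, differed by 0.30 (-0.12 to 0.72). Incenp, a passenger protein of the dividing chromosomes, read 836 and 884 and then 634 and 664 (-0.40 ± 0.08, adjusted p = 0.00666), a fall under 2-fold seen in all of its other probe sets, at -0.74, -0.31 and -0.45.

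Of 33 spermatogonial genes 25 were lower, with a median of -0.21 (-0.12 and -0.02 under the other scalings). Ret, the receptor for GDNF signals, was called lower at 29.7 and 53.0 and then 8.40 and 10.7 (-1.46 ± 0.35, adjusted p = 0.0187), and Cd9, a tetraspanin, was called higher at 13.3 and 21.3 and then 74.7 and 38.1 (1.31 ± 0.20, adjusted p = 0.001). Ret was called in 2 and Cd9 in 3 of the 4 fits without 1 array. Zbtb16, a stem cell transcription factor, read 59.95 and 63.4 and then 25.4 and 47.4 (-0.70 ± 0.18, adjusted p = 0.0276), with its other probe sets at 0.76 and 0.81. Kit, the receptor of differentiating spermatogonia, read 60.2 and 46.2 and then 7.91 and 47.8, so 1 array of day 35 set its difference of -1.03 ± 0.36 (adjusted p = 0.0891). Stra8, induced by retinoic acid, differed by -0.17 (-0.40 to 0.07). Among 30 cell division genes Cdc6, a replication licensing factor, was called higher and none lower. Cdc6 read 9.99 and 52.5 and then 75.2 and 59.8 (1.19 ± 0.34, adjusted p = 0.04), and the difference was 0.31 without day 30 replicate 1. Foxm1, a mitotic transcription factor, was lower by less than 2-fold (-0.62 ± 0.18, adjusted p = 0.0443).

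Adult Leydig cell markers held the highest share of calls of the cell type lists, 4 of 18 against 0.621% and 1.33% over all genes. Of the 4, 3 were higher and 1 lower. The list holds 25 genes, and Insl3, Lhcgr, Prlr, Hsd3b6, Cyp2a4, Cyp2a5 and Gsta1 were not measured. Only Ptgds, 1 of the 18, was also called without each array. Ptgds and Agt are given above. Gsta3, a glutathione transferase that also acts on steroids, was called higher at 37.6 and 75.8 and then 160 and 123 (1.26 ± 0.22, adjusted p = 0.00269), in 3 of the 4 fits without 1 array. Nr2f2, a nuclear receptor of Leydig progenitors, was called lower at 155 and 101 and then 62.5 and 48.4 (-1.08 ± 0.16, adjusted p = 0.000776). Its call ended without day 30 replicate 1 (-0.79) and without day 35 replicate 2 (-0.92), and 5 other Nr2f2 probe sets gave -0.58 to -0.06. Pdgfra, another progenitor gene, read 185 and 141 and then 69.1 and 139 (-0.67 ± 0.18, adjusted p = 0.0324), and the difference was -0.20 without day 35 replicate 1. The summed list was 7444 and 7630 on day 30 and 9055 and 7161 on day 35, so its arrays overlapped.

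None of 16 steroid synthesis genes was called (median -0.03), and in day 35 replicate 2 the sum of the list, 6738, was the lowest of the 4 arrays (8004, 8058 and 8497 for the others). Cyp17a1, which makes androgen precursors, read 2465 and 2384 and then 2742 and 2012 (-0.05, interval -0.29 to 0.20). Hsd17b3, the last step to testosterone, differed by 0.26 (-0.02 to 0.53) and Star, the cholesterol carrier into mitochondria, by 0.31 (-0.08 to 0.70). Other Star probe sets moved by 0.59 (adjusted p = 0.0408) and 0.07. Cholesterol synthesis had no call among 19 genes, and 4 passed the p threshold below 2-fold. Fdps, which makes farnesyl diphosphate, was higher (0.46 ± 0.09, adjusted p = 0.00394). Dhcr7 (-0.68 ± 0.15, adjusted p = 0.00931), Hmgcs1 (-0.42 ± 0.10, adjusted p = 0.0158) and Lss (-0.66 ± 0.19, adjusted p = 0.0439) were lower, with the other Lss probe set at -0.09. Mvk, mevalonate kinase, read 11.3 and 21.3 and then 60.8 and 32.1 and did not pass (adjusted p = 0.0692), with its other probe set at -0.33.

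Of 32 extracellular matrix genes 22 were lower, 8 of them at an adjusted p under 0.05 and none higher at it, against 4.18% lower over all tested genes. The median was -0.20, and -0.17 and -0.01 under quantile and common-median scaling. Col6a2, a chain of collagen VI, read 161 and 181 and then 55.4 and 80.1 (-1.26 ± 0.12, adjusted p = 2.02e-05), from -1.50 to -1.02 without 1 array, yet its other probe set moved by 0.13. Col6a1, its partner chain, read 164 and 214 and then 133 and 104 (-0.64 ± 0.12, adjusted p = 0.00461). Col3a1, fibrillar collagen III, read 571 and 476 and then 359 and 344 (-0.56 ± 0.08, adjusted p = 0.000547), and Col4a1, of basement membrane, 236 and 205 and then 155 and 148 (-0.52 ± 0.10, adjusted p = 0.00628). Col5a2 was called lower at 37.7 and 61.0 and then 31.1 and 11.7 (-1.02 ± 0.22, adjusted p = 0.0101); its call ended without day 35 replicate 2 (-0.52) and without day 30 replicate 2 (-0.72). Ltbp4, a matrix binder of latent TGF-β outside the list, read 124 and 139 and then 47.9 and 57.1 (-1.21 ± 0.12, adjusted p = 2.02e-05) and was called without each array. Sparc and Dcn, secreted matrix proteins, did not pass, at -0.17 and 0.22. Col6a2 and Ltbp4 had started the series at means of 2960 and 1130 on day 0, and were at 262 and 246 by day 20.

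**Figure D5:**
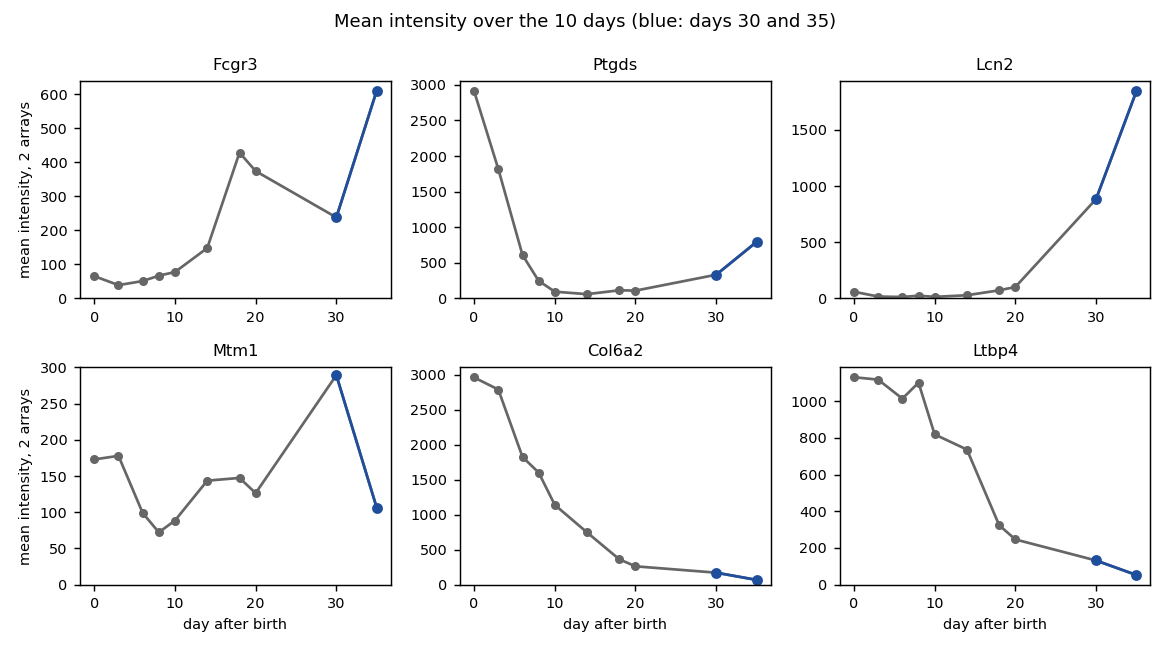
Mean intensity of the 2 arrays of each day against days after birth, with the last 2 days in blue and each axis from 0. Fcgr3, Ptgds and Lcn2 end at a rise (238 to 611 for Fcgr3), Mtm1 peaks at 289 on day 30, and Col6a2 and Ltbp4 end far below their day 0 means of 2960 and 1130.

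None of 36 Sertoli cell genes was called (median -0.04); Sox9, their transcription factor, differed by -0.37 (-0.69 to -0.04, adjusted p = 0.166) and Clu, clusterin, by 0.07 (-0.05 to 0.19). Below 2-fold, 3 Sertoli cell genes passed the p threshold. Ctsl, a lysosomal protease, was higher at 2274 and 2008 and then 2995 and 2610 (0.39 ± 0.07, adjusted p = 0.00272), as was Tsx (0.45 ± 0.13, adjusted p = 0.0422). Ocln, a tight junction protein, was lower (-0.70 ± 0.17, adjusted p = 0.0174), with its other probe set at 0.17. None of 15 myoid genes was called, and Acta2, smooth muscle actin, differed by -0.07 (-0.23 to 0.09). Of 16 endothelial genes Tm4sf1 was called higher at 16.1 and 10.9 and then 60.1 and 29.4 (1.25 ± 0.29, adjusted p = 0.0149), in 2 of the 4 fits without 1 array. Of 27 receptors Bmpr1b, a BMP receptor, was called lower from dim values (-1.90 ± 0.44, adjusted p = 0.0155), in 2 of those fits and with its other probe set at 0.14. Of 24 immediate early genes Ier3 was called higher (1.14 ± 0.29, adjusted p = 0.0251), and its difference was 0.65 without day 35 replicate 1.

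Markers of neighbouring tissue were checked too. Of 11 fat and skeletal muscle genes Retn, a fat cell hormone, was called lower (-1.27 ± 0.38, adjusted p = 0.0489) in no fit without 1 array. Adipoq, adiponectin, read 364 and 395 and then 140 and 285, and the list summed to 686 and 748 on day 30 and 413 and 635 on day 35. The sum of the list was thus higher on both day 30 arrays, beside the falls reported here, but Adipoq held much of it. Adipoq had a mean of 41.7 on day 20. Of the 11 tested genes 7 were lower and 4 higher, and the part of fat in the falls was not tested. None of 12 epididymal genes was called, with sums of 3108 and 3896 and then 3240 and 3341. Wfdc15a and Eppin made up most of these sums, with means of 2554 and 543 on day 30. Both were high earlier in the series, Wfdc15a at 1890 on day 18 and Eppin at 1172 on day 10. The sums therefore say little about epididymal tissue. None of 7 erythroid genes was called, and Hba-a1, alpha globin, read 14.2 and 69.8 and then 14.2 and 8.32, so 1 array of day 30 stood high. Housekeeping genes (12, median 0.02) and ribosomal protein genes (48, median 0.06) had no call.

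Of 559 tested X-linked genes, 19 were called lower, 3.40% against 1.33% over all genes, and 5 (0.894%) also without each array, against 0.25%. Those 5 are Dnase1l1, Fam50a, Mtcp1, Mtm1 and Spin4. Apool, a mitochondrial inner membrane protein, was the 1 called higher, at 14.4 and 22.9 and then 43.0 and 61.3. Apart from Mtm1 the called genes were dim; Dnase1l1, a DNase, read 41.8 and 61.8 and then 5.88 and 12.2 (-1.83 ± 0.36, adjusted p = 0.00529). The median of the X-linked genes was -0.10 as deposited, -0.02 under quantile and 0.09 under common-median scaling, so its sign turned.

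The widest gaps lay between duplicates of 1 day. On day 30 Dok1, an adaptor of receptor signalling, read 7.14 and 115, and Akr1c13, an aldo-keto reductase, 77.8 and 6.34. On day 35 Sez6l2 read 59.8 and 3.71 and Clcn5, a chloride channel, 42.0 and 269. For these genes the sign of the difference turned with the array left out: Clcn5 ran from -2.29 to 0.18 and Dok1 from -0.93 to 2.10.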

How the data were processed

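Per the labels, whole-testis total RNA was isolated with Trizol and biotin-labelled by one-cycle 3′ amplification. The authors deposited 1 intensity per probe set and array, with a 2% trimmed mean of 125.0 on all 20 arrays and no detection calls; the sources used here do not name the summarizing software. The number of arrays limits the precision.

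Of 45101 probe sets, 34945 carried 1 gene symbol, 932 several, 9160 were unlisted in the annotation table and 64 were controls; 34741 symbols were matched to RefSeq (GRCm38.p6). Each of 18193 genes was represented by its probe set of highest mean log2 intensity, and 16429 above the 40th percentile on at least 2 arrays were tested on log2(intensity + 7.83), 7.83 being the pooled 20th percentile. limma 3.58.1 in R 4.3.3 (lmFit, eBayes with trend) fitted day as a factor over 20 arrays, with 10 residual and 8.88 prior degrees of freedom, two-sided, with Benjamini-Hochberg adjustment over all tested genes. The fit was tested on simulated data.

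The named genes are, from the called genes, the 12 that rose most and the 12 that fell most with separate arrays and a higher day mean at or above the 60th percentile, without clone symbols; a fixed set of stage and cell type genes; the 3 largest differences per list; and the 6 genes per day with the widest gap between duplicates. Apart from the 12 rises and 12 falls, only some of these genes are printed here. The gene groups and rules were chosen with earlier results of these data known. No set test was run. Alternatives covered scaling, the added constant, the filter, the probe set rule, the days fitted, array weights, a replicate block and leaving out each array.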

Additional observations from a re-analysis of the deposited data

Results flagged for a closer look

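Of 9160 probe sets without an entry in the annotation table, 34 were called higher and 220 lower on day 35. Of the 16429 tested genes, 102 (0.621%) and 219 (1.33%) were called. The unlisted probe sets came from a fit of all non-control probe sets without the intensity filter, so the counts are not directly comparable. Of the unlisted probe sets called, 5 had a day mean of at least 200, and they lie outside the comparison of named genes. Probe set 1426061_x_at read 476 and 362 on day 30 and 114 and 151 on day 35, a difference of -1.61. Probe set 1423653_at read 394 and 391 and then 121 and 134 (-1.56). Probe set 1426060_at read 388 and 326 and then 151 and 138 (-1.26), and 1440862_at read 155 and 293 and then 105 and 91.7 (-1.07). Probe set 1450864_at rose by 1.05, from 1211 and 1135 to 2501 and 2357. Their genes are not named here, and day 30 and day 35 did not overlap for any of them.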

How the results depend on the processing

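As reported, 102 genes were higher and 219 lower on day 35. Leaving out each array in turn gave 98 to 224 higher and 189 to 356 lower genes. Counts of higher and lower genes were 20 and 26 with array weights, 6 and 8 with days 18 to 35 alone, 5 and 4 with days 30 and 35 alone, 231 and 118 with a common median, and 273 and 178 with quantile normalization. They were 39 and 100 with a floor at the pooled median, 41 and 118 with the constant at the 40th percentile, 52 and 131 with the mean of all probe sets, 34 and 63 at an adjusted p under 0.01, and 436 and 687 with no minimum difference. A restriction to a higher day mean of at least 200, added after seeing the data, left 5 and 5. Replicate numbers did not pair the samples (correlation of deviations 0.04; -0.02 to 0.06 over 45 pairs of days), and the replicate block gave 110 and 223 with 102 and 209 of the genes called without it. Of 48 called named genes none changed direction under the 20 settings, and 3 kept their call under all of those with a 2-fold minimum: Fcgr3, Ptgds and 1700104B16Rik. Most settings could not reverse a sign, because the arrays of called genes did not overlap between days or the difference stayed the same. Only quantile normalization, the common median and the mean of all probe sets could have done so. Of 97 named genes that were not called, 21 changed sign and 20 were called under some setting. At low intensity, signal over background limits the comparison.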
